A study of Rattus norvegicus with 4 samples.

Results

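Ion channel genes were followed in rat neural stem/progenitor cells (NSPCs) across 4 libraries. The genes were chosen by symbol: those that begin with Cacna, Cacnb, Cacng or Kcn, or with Scn, Hcn, Clcn, Trpc, Trpm, Trpv or Piezo and a digit. The rule matched 163 of 16881 symbols, and no expression value entered it. All cells were labelled WT rat NSPCs; strain, age and the region they came from were not given in the sources used here. One library was made for each combination of medium and culture platform, so no group had replicates. Differentiation cells on PUCL@CNT1 and differentiation cells on PUCL had 24 h in stemness-maintaining medium (knockout DMEM/F12 with StemPro neural supplement) followed by 1.5 d in B-27 Plus, a neuronal culture medium. Maintenance cells on PUCL@CNT1 and maintenance cells on PUCL were taken at 24 h in the stemness-maintaining medium. Medium and time in culture therefore changed together and cannot be told apart. The series title describes PUCL@CNT as an electroconductive nanohybrid scaffold, and PUCL is the same platform name without the CNT part.

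Ion channels are membrane proteins that let selected ions pass when voltage, a ligand, calcium or force opens them. In neural progenitors, potassium channels hold the resting potential, while sodium and calcium channels open on depolarisation and are built up as a progenitor becomes a neuron. Auxiliary subunits set where a channel sits and how it gates. Trp and Piezo channels conduct cations in answer to chemical, thermal or mechanical stimuli, and Clcn proteins carry chloride across the cell membrane or the membranes of endosomes and lysosomes.

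The libraries held 6035848 to 6855984 counts over 9584 to 9842 symbols. Rn45s, a ribosomal RNA precursor entry, took 4.25% of counts on PUCL@CNT1 and 6.72% on PUCL in differentiation medium, and 4.54% on PUCL@CNT1 and 5.66% on PUCL in maintenance medium. Of the progenitor markers, Nes had 3714, 3461, 2363 and 2420 counts and Sox2 had 3879, 6301, 3989 and 4219, in the order differentiation PUCL@CNT1, differentiation PUCL, maintenance PUCL@CNT1 and maintenance PUCL, while Msi1 was at 0 throughout. Of 7 tested progenitor markers, 2 (Vim and Fabp7) passed the edgeR test for medium, both higher in differentiation medium. The 6 neuron markers summed to 55.4 CPM (counts relative to the scaled library size) on PUCL@CNT1 and 91.3 on PUCL in differentiation medium and to 119 on PUCL@CNT1 and 133 on PUCL in maintenance medium. Map2 and Snap25 carried the lower sums in differentiation medium, while Dcx had 61 counts on PUCL@CNT1 and 79 on PUCL in differentiation medium against 39 on PUCL@CNT1 and 48 on PUCL in maintenance medium. Tubb3 had 62 on PUCL@CNT1 and 25 on PUCL in differentiation medium against 20 on PUCL@CNT1 and 28 on PUCL in maintenance medium. In edgeR 0 of these 6 markers passed (2 at an unadjusted p under 0.05, 0 in DESeq2 and limma-voom). Of 6 microglia markers, 5 were at 0 in all libraries.

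Channel transcripts were a small and sparsely counted part of every library. The 163 genes summed to 5351 counts in differentiation cells on PUCL@CNT1, 5169 in differentiation cells on PUCL, 4722 in maintenance cells on PUCL@CNT1 and 4890 in maintenance cells on PUCL. As CPM of the unscaled totals that was 780.5, 785.5, 782.3 and 752.0 in the same order, so the total share of channel transcripts lay within a narrow range. Some count was found for 89 genes, and 74 were at 0 throughout. Counts were present in all 4 libraries for 33 genes, in 3 libraries for 13, in 2 for 13 and in a single library for 30. With at least 10 counts in 1 or more libraries, 69 genes entered the tests, and 36 of these (52.2%) had a 0 in some library, against 21.3% of all 10516 tested genes. At like depth the shares were close: 94.7% of channel genes and 94.5% of all genes with 10 to under 50 summed counts, and 52.9% and 52.4% with 50 to under 200. A count of 0 allows up to 3 counts, which is 0.451 to 0.480 CPM after scaling.

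**Figure D1:**
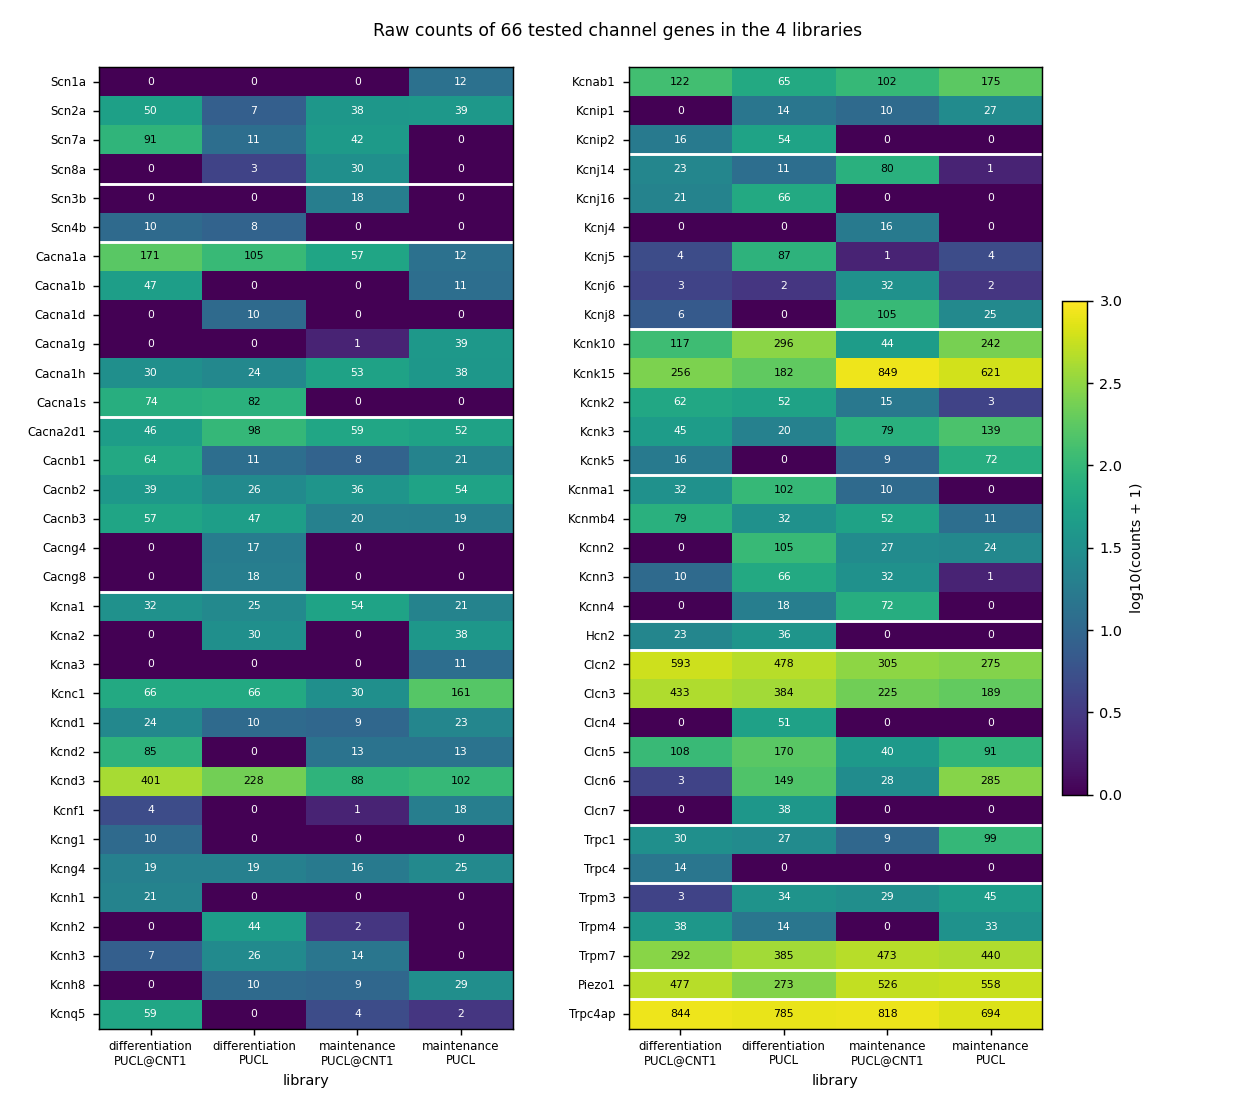
Raw counts of 66 of the 69 tested channel genes (rows, grouped by kind of channel, white lines between groups) in the 4 libraries (columns); colour gives log10(counts + 1) and each cell prints its count. Of all 69 tested genes, 6 had 100 or more counts in every library and 36 had a 0 in at least 1.

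Kcnk15, a two-pore-domain potassium channel gene, fell after the switch to differentiation medium, and Clcn6, an endosomal chloride/proton exchanger gene, was lower on PUCL@CNT1. They were the 2 channel genes past a test across libraries, 1 for each term. The test was edgeR's quasi-likelihood F test with medium and platform as additive terms over the 4 libraries, with Benjamini-Hochberg adjustment over 10516 genes at 0.05. It uses 1 platform as the repeat of the other, so a change seen on a single platform counts as spread. For medium, 1 of 69 passed, against 2.81% of all tested genes in either direction and 1.02% lower. For platform, 1 of 69 passed, against 0.456% in either direction and 0.247% lower. At an unadjusted p under 0.05, 7 of 69 channel genes differed by medium against 12.1% of all genes, and 2 of 69 differed by platform against 6.95%. DESeq2 called 2 channel genes for medium (Kcnk15 and Cacna1s) against 1.62% of all genes and 0 for platform against 0.342%. With limma-voom it was 1 for medium (Kcnk15) against 2.8% and 0 for platform against 0.827%. A share of 1 in 69 is 1.45%, below the share of all genes for medium in edgeR and resting on a single gene for platform.

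For single pairs of libraries a size rule was used: the scaled ratio had to reach 2-fold, and its exact 95% (Clopper-Pearson) interval had to stay beyond 1.5-fold. The interval covers counting error only, no p-value belongs to it, and each pair compares 2 libraries rather than 2 conditions. On PUCL@CNT1, 21 of 69 genes were higher and 15 lower in differentiation medium by this rule, against 16.5% and 14.5% of all genes (31.0% in either direction). On PUCL, 24 were higher and 15 lower, against 16.1% and 15.3% of all genes (31.3% in either direction). The median log2 ratio of channel genes with a count in the pair was 0.71 on PUCL@CNT1 and 0.32 on PUCL (0.33 and 0.28 with zeros set at 3 counts), against 0.03 and -0.01 over all genes.

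Depth moved with these shares. Of the channel genes with summed counts from 50 to under 200, 20 of 34 passed on PUCL@CNT1 and 19 of 34 on PUCL, against 52.2% and 54.9% of all genes of that depth. Of those with 10 to under 50 counts, 9 of 19 passed on PUCL@CNT1 and 11 of 19 on PUCL, against 50.9% and 51.3%. Genes with 200 to under 1000 counts passed in 6 of 10 cases on each platform, against 34.4% on PUCL@CNT1 and 35.8% on PUCL. At 1000 counts or more, 1 of 6 passed on PUCL@CNT1 and 3 of 6 on PUCL, against 12.2% and 10.6%.

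**Figure D2:**
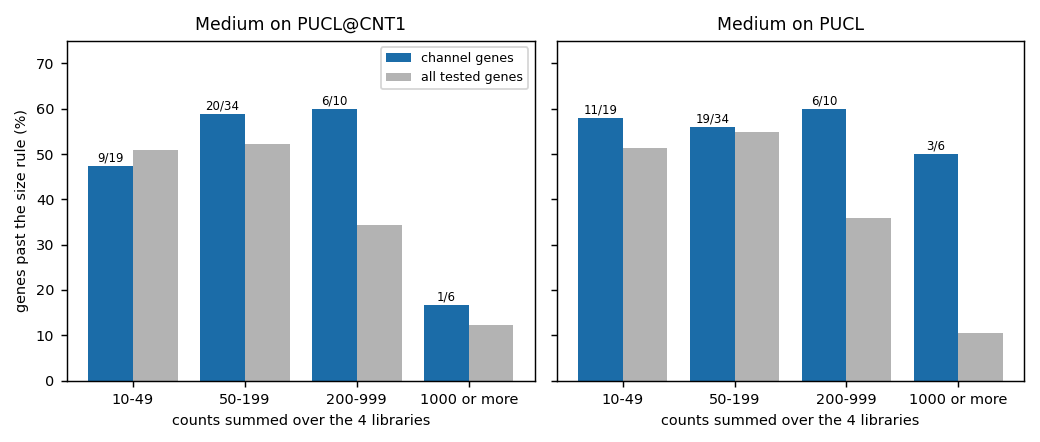
Share of genes (percent, y axis) past the size rule for medium on PUCL@CNT1 (left) and PUCL (right), by counts summed over the 4 libraries (x axis), for channel genes (blue, with the number past over the number tested) and all tested genes (grey). Below 200 counts about as many channel genes as other genes passed, for example 20 of 34 against 52.2% at 50 to under 200 counts on PUCL@CNT1.

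Past the size rule in the same direction on both platforms were 9 genes higher in differentiation medium, against 4.35% of all genes, and 2 lower, against 3.53%. Those higher included Cacna1a, Cacna1s, Hcn2, Kcnd3, Kcnip2, Kcnj16, Kcnk2 and Scn4b, and the 2 lower were Kcnj8 and Kcnk15. Of these 11, Kcnk15 alone passed in edgeR, and 5 of the 9 had counts in differentiation medium and 0 in both maintenance libraries. The share higher on both platforms also moved with depth. At 10 to under 50 summed counts it was 1 of 19 channel genes, against 2.5% of all genes of that depth. At 50 to under 200 it was 5 of 34 against 9.5%, and at 200 to under 1000 it was 3 of 10 against 5.2%. At 1000 or more it was 0 of 6 against 1.89%. The sum of the 6 oligodendrocyte lineage markers was also higher in differentiation medium. It was 1466 CPM on PUCL@CNT1 and 1491 on PUCL, against 816 on PUCL@CNT1 and 890.1 on PUCL in maintenance medium. In edgeR 3 of 6 rose, against 1.8% of all genes, while DESeq2 called 1. Sox10 was lower on PUCL@CNT1, with 82 counts in differentiation medium against 97 in maintenance medium. On PUCL, Olig2 was nearly level, with 3063 against 2978. The 6 astrocyte markers summed to 458.8 CPM on PUCL@CNT1 and 919.5 on PUCL in differentiation medium, against 465.8 on PUCL@CNT1 and 467.5 on PUCL in maintenance medium. The high library was that of differentiation cells on PUCL, in which S100b had 3939 counts against 534 to 761 in the other libraries. S100b carried that sum, and it passed in edgeR for medium (adjusted p 0.000279) and for platform (0.00578, lower on PUCL@CNT1). Gja1 was lowest in that library, at 1963 counts against 2289 to 2388 in the others. Gfap had 31 counts there, Aqp4 had 12 and Aldh1l1 had 0. Slc1a2 was at 0 in all 4 libraries. The channel genes Kcnj16, Kcnma1, Kcnn2, Clcn4 and Clcn7 had their highest count in differentiation cells on PUCL. The part of the oligodendrocyte lineage and astrocyte markers in the channel values was not tested.

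**Figure D3:**
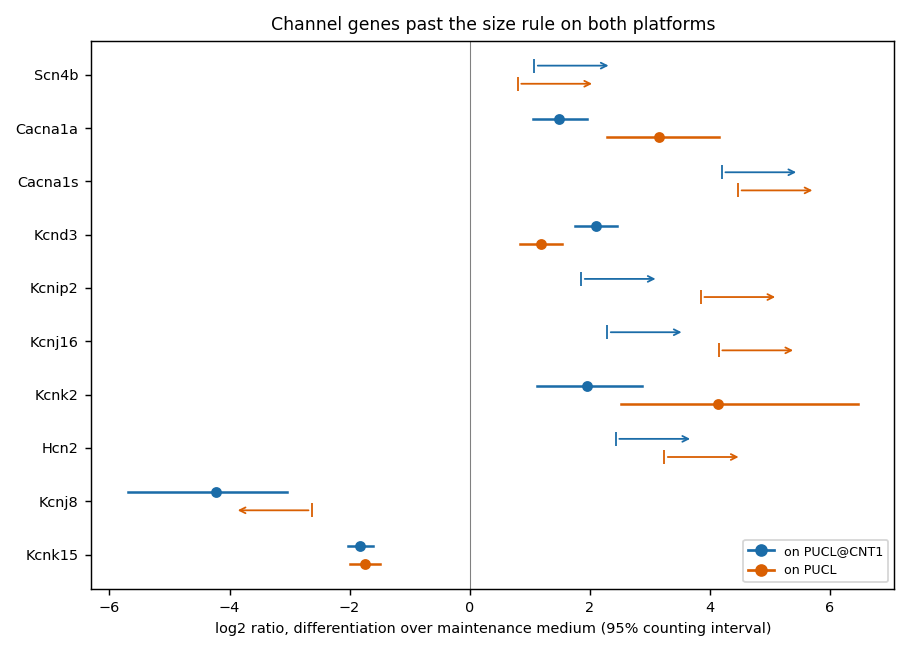
Log2 ratio of differentiation over maintenance medium (x axis) with 95% counting intervals for 10 channel genes past the size rule in the same direction on both platforms, on PUCL@CNT1 (blue) and PUCL (orange). Points are ratios, and arrows start at the bound nearer to 0 where a maintenance or differentiation library had 0 counts. Kcnj8 and Kcnk15 lie left of 0 on both platforms and the other 8 genes right of it.

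Sodium channels were thinly counted. The auxiliary subunit gene Scn4b was higher in differentiation medium on both platforms. Scn4b encodes the beta4 subunit linked to resurgent current. Its counts were 10 on PUCL@CNT1 and 8 on PUCL in differentiation medium and 0 in both maintenance libraries. The 95% interval of the rise began at 2.11-fold for PUCL@CNT1 and 1.74-fold for PUCL.

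None of the 5 tested sodium pores was past the size rule in the same direction on both platforms. Scn2a, an early axonal pore of neurons, had 50 counts on PUCL@CNT1 and 7 on PUCL in differentiation medium, against 38 on PUCL@CNT1 and 39 on PUCL in maintenance medium, so only differentiation cells on PUCL were low. Scn8a had 30 counts in maintenance cells on PUCL@CNT1, 3 in differentiation cells on PUCL and 0 in both remaining libraries. Scn7a, a sodium-sensing relative that is not gated by voltage, had 91 counts on PUCL@CNT1 against 11 on PUCL in differentiation medium, and 42 on PUCL@CNT1 against 0 on PUCL in maintenance medium. It was higher on PUCL@CNT1 in both media, 8.05-fold (4.29 to 16.7) in differentiation medium and at least 11.5-fold in maintenance medium, with an adjusted p of 0.813 in edgeR. Scn7a and Kcnmb4 were the 2 genes past the size rule for platform in this direction in both media, against 2.52% of all genes.

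Calcium channel pores included 2 genes that were higher in differentiation medium on both platforms. Cacna1a, the P/Q-type pore of synaptic terminals, had 171 counts on PUCL@CNT1 and 105 on PUCL in differentiation medium, against 57 on PUCL@CNT1 and 12 on PUCL in maintenance medium. The ratio was 2.82-fold (95% interval 2.08 to 3.87) on PUCL@CNT1 and 8.93-fold (4.90 to 17.8) on PUCL. The groups did not overlap, and the edgeR adjusted p was 0.338. With 2 libraries on each side, such a separation is only a description, here and below. The share of all genes that separate in this way was not counted. Cacna1s, the L-type pore of skeletal muscle, had 74 counts on PUCL@CNT1 and 82 on PUCL in differentiation medium and 0 in both maintenance libraries. That is at least 18.4-fold higher on PUCL@CNT1 and at least 22.2-fold on PUCL. The edgeR adjusted p of Cacna1s was 0.0911, and 2 of 7 other tests passed, DESeq2 at an adjusted p of 0.00878 and edgeR with medium as the single term at 0.0486. Cacna1b, the N-type pore, had 47 counts on PUCL@CNT1 and 0 on PUCL in differentiation medium, against 0 on PUCL@CNT1 and 11 on PUCL in maintenance medium, so its medium ratio took opposite signs.

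Of the auxiliary calcium channel genes, 6 of 16 were tested and 0 of them passed the size rule on both platforms. Cacna2d1, which raises the number of channels at the surface, had 46 counts on PUCL@CNT1 and 98 on PUCL in differentiation medium, against 59 on PUCL@CNT1 and 52 on PUCL in maintenance medium. Cacnb1, a cytoplasmic beta subunit, had 64 counts on PUCL@CNT1 and 11 on PUCL in differentiation medium, against 8 on PUCL@CNT1 and 21 on PUCL in maintenance medium. Cacnb1 overlaps Rpl19 in the RefSeq annotation, an abundant ribosomal protein gene with 5474, 2953, 3843 and 3247 counts in those libraries, and reads of overlapping genes may not be told apart here.

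Kcnd3 was the 1 voltage-gated potassium pore past the size rule in the same direction on both platforms, higher in differentiation medium, without passing in edgeR. It encodes Kv4.3, a pore of the fast A-type current that delays firing. It had 401 counts on PUCL@CNT1 and 228 on PUCL in differentiation medium, against 88 on PUCL@CNT1 and 102 on PUCL in maintenance medium. Both differentiation libraries lay above both maintenance libraries, 4.28-fold on PUCL@CNT1 (3.39 to 5.46) and 2.28-fold on PUCL (1.80 to 2.91), a fitted log2 change of 1.64 (SE 0.556) with an edgeR adjusted p of 0.101. Kcnip2 encodes a calcium-binding partner of Kv4 pores. Its counts were 16 on PUCL@CNT1 and 54 on PUCL in differentiation medium and 0 in both maintenance libraries. The 95% interval of this rise began at 3.62-fold for PUCL@CNT1 and 14.4-fold for PUCL, with an edgeR adjusted p of 0.621. The other Kv4 pores did not share this pattern. Kcnd2 had 85 counts on PUCL@CNT1 and 0 on PUCL in differentiation medium, against 13 on each platform in maintenance medium, and Kcnd1 had 24 on PUCL@CNT1 and 10 on PUCL in differentiation medium, against 9 on PUCL@CNT1 and 23 on PUCL in maintenance medium. Kcnip1, the other tested Kcnip gene, went the other way from Kcnip2. It had 0 counts on PUCL@CNT1 and 14 on PUCL in differentiation medium, against 10 and 27 in maintenance medium. The fall was past the size rule on PUCL@CNT1 but not on PUCL.

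The stretches before the RefSeq start sites of Kcnd3 and Kcnip2 are shown because both genes were higher on both platforms and both hold a GC box (GGGCGG on either strand, in capitals). The Kcnd3 stretch is chr2:195626066-195626315 (plus strand, 250 bases) and the Kcnip2 stretch chr1:254613899-254614148 (minus strand, 250 bases), both in the GRCr8 assembly.
Kcnd3: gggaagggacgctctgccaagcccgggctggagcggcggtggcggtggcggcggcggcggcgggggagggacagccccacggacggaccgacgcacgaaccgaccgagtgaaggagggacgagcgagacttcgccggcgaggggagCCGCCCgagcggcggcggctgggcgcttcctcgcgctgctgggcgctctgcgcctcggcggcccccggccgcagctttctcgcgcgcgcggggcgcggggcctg
Kcnip2: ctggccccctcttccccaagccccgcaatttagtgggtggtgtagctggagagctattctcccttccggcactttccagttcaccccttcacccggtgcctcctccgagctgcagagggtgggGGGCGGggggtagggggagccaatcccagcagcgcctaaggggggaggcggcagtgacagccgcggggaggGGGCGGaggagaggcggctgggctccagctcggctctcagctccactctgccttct
The GC box stood in 33.06% of 33469 RefSeq promoter windows (300 bases each) and in 33 of 57 windows of the 49 tested channel genes that had one. A match is a description of the letters and not evidence of binding.

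Other voltage-gated potassium genes differed between single libraries. Kcna2, an axonal Kv1 pore, had 0 counts on PUCL@CNT1 in both media, against 30 on PUCL in differentiation medium and 38 on PUCL in maintenance medium. It was lower on PUCL@CNT1 in both media, by at least 7.86-fold in differentiation medium, with an edgeR adjusted p of 0.908. Kcnc1, a Kv3 pore of fast-spiking cells, had 66 counts on each platform in differentiation medium, against 30 on PUCL@CNT1 and 161 on PUCL in maintenance medium, so the platforms stood apart in maintenance medium. Kcnq5, an M-current pore, had 59 counts in differentiation cells on PUCL@CNT1 and 0 to 4 in the other libraries. Kcnh2 had 44 counts in differentiation cells on PUCL and 0 to 2 elsewhere. Kcnq5 and Kcnh2 thus each rested on a single library, and on different ones. Kcnf1, a silent subunit that modifies Kv2 pores, had 4 counts on PUCL@CNT1 and 0 on PUCL in differentiation medium, against 1 on PUCL@CNT1 and 18 on PUCL in maintenance medium. Kcnh3 had 7 counts on PUCL@CNT1 and 26 on PUCL in differentiation medium, against 14 on PUCL@CNT1 and 0 on PUCL in maintenance medium, and overlaps Mcrs1, which had 690, 903, 603 and 420 counts in those libraries. Kcnab1, a cytoplasmic beta subunit, had 122 counts on PUCL@CNT1 and 65 on PUCL in differentiation medium, against 102 on PUCL@CNT1 and 175 on PUCL in maintenance medium. Of 16 tested pores, 5 were higher and 2 lower on PUCL@CNT1 in differentiation medium by the size rule, against 16.5% and 14.5% of all genes. On PUCL, 3 were higher and 4 lower, against 16.1% and 15.3%.

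Inward rectifiers, which pass potassium most easily near rest, held 1 gene higher and 1 lower in differentiation medium on both platforms. Kcnj16, the Kir5.1 subunit, had 21 counts on PUCL@CNT1 and 66 on PUCL in differentiation medium and 0 in both maintenance libraries. For Kcnj16 the 95% interval of the rise began at 4.89-fold for PUCL@CNT1 and 17.7-fold for PUCL, with an edgeR adjusted p of 0.454. Kcnj10, its usual glial partner, was at 0 in all 4 libraries. Kcnj8, the Kir6.1 pore of ATP-sensitive channels, had 6 counts on PUCL@CNT1 and 0 on PUCL in differentiation medium, against 105 on PUCL@CNT1 and 25 on PUCL in maintenance medium. It was 18.6-fold lower (8.28 to 51.9) on PUCL@CNT1 and at least 6.17-fold lower on PUCL, with an edgeR adjusted p of 0.434. Kcnj8 is also known as a pericyte gene, and the 6 mural cell and fibroblast markers summed to 366 CPM on PUCL@CNT1 and 500 on PUCL in differentiation medium, against 747 on PUCL@CNT1 and 1064 on PUCL in maintenance medium. Acta2 carried these sums, with 2279 counts on PUCL@CNT1 and 3223 on PUCL in differentiation medium against 4664 on PUCL@CNT1 and 6920 on PUCL in maintenance medium, and was the 1 of 4 tested markers that fell in edgeR. Col1a1 and Col3a1 went the other way on PUCL@CNT1, with 88 and 65 counts in differentiation medium against 1 and 0 in maintenance medium, and on PUCL they had 7 and 2 against 84 and 3. Rgs5 and Dcn were at 0 in all libraries. The part of these markers in the Kcnj8 values was not tested. In bulk RNA, fewer cells of a type and less RNA per cell cannot be told apart.

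Kcnk15 fell after the switch to differentiation medium on both platforms. It encodes TASK-5, a two-pore-domain potassium channel relative that gives no current of its own in most expression systems. It had 256 counts (38.5 CPM) on PUCL@CNT1 and 182 (28.2 CPM) on PUCL in differentiation medium, against 849 (136 CPM) on PUCL@CNT1 and 621 (94.2 CPM) on PUCL in maintenance medium. All differentiation values lay below all maintenance values, 3.53-fold lower on PUCL@CNT1 (3.07 to 4.07) and 3.34-fold lower on PUCL (2.83 to 3.97). The fitted log2 change was -1.78 (SE 0.364), with an edgeR adjusted p of 0.000804. It passed in 8 of 8 other tests (adjusted p 0.000912 to 0.0391) but in 2 of 4 fits that left out a library, with an adjusted p of 0.403 without maintenance cells on PUCL@CNT1 and 0.0541 without maintenance cells on PUCL. Those fits had medium as the single term, since 3 libraries leave no residual degree of freedom with both terms, and the lone library of an arm was assumed to vary like the others. For platform it had a fitted log2 difference of 0.49 and an adjusted p of 0.984. Rims4, which overlaps it in the annotation, was at 0 in all 4 libraries.

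The two-pore-domain channels that respond to membrane stretch had other patterns than Kcnk15. Kcnk2 (TREK-1) had 62 counts on PUCL@CNT1 and 52 on PUCL in differentiation medium, against 15 on PUCL@CNT1 and 3 on PUCL in maintenance medium. It was 3.88-fold higher (2.18 to 7.35) on PUCL@CNT1 and 17.7-fold higher (5.72 to 88.5) on PUCL, with an adjusted p of 0.813. Kcnk10 (TREK-2) differed by platform instead, with 117 counts on PUCL@CNT1 against 296 on PUCL in differentiation medium and 44 on PUCL@CNT1 against 242 on PUCL in maintenance medium. It was lower on PUCL@CNT1 in both media, 2.60-fold (2.09 to 3.25) in differentiation medium and 5.21-fold (3.77 to 7.36) in maintenance medium, with a fitted log2 difference of -1.87 (SE 0.617) and an edgeR adjusted p of 0.218. Kcnk10, Clcn6 and Kcna2 were the 3 genes past the size rule for platform in this direction in both media, against 3.17% of all genes. Kcnk3 (TASK-1), an acid-sensitive leak channel, had 45 counts on PUCL@CNT1 and 20 on PUCL in differentiation medium, against 79 on PUCL@CNT1 and 139 on PUCL in maintenance medium. Kcnk5 (TASK-2) had 16 counts on PUCL@CNT1 and 0 on PUCL in differentiation medium, against 9 on PUCL@CNT1 and 72 on PUCL in maintenance medium.

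The 5 tested calcium-activated potassium channel genes gave different counts on the 2 platforms, and this difference was not tested. On PUCL, 4 were higher and 0 lower in differentiation medium by the size rule, against 16.1% and 15.3% of all genes. On PUCL@CNT1, 0 were higher and 3 lower, against 16.5% and 14.5%. Of all genes with 50 to under 200 summed counts, 54.9% on PUCL and 52.2% on PUCL@CNT1 passed in either direction. Kcnn2, an SK channel opened by calcium, had 0 counts on PUCL@CNT1 and 105 on PUCL in differentiation medium, against 27 on PUCL@CNT1 and 24 on PUCL in maintenance medium. Kcnn3, another SK channel, had 10 on PUCL@CNT1 and 66 on PUCL in differentiation medium, against 32 on PUCL@CNT1 and 1 on PUCL in maintenance medium. Kcnn4, the intermediate-conductance channel, had 0 on PUCL@CNT1 and 18 on PUCL in differentiation medium, against 72 on PUCL@CNT1 and 0 on PUCL in maintenance medium. All 3 were lower on PUCL@CNT1 than on PUCL in differentiation medium, and Kcnn3 and Kcnn4 were higher on PUCL@CNT1 in maintenance medium. Kcnma1, the large-conductance BK pore, had 32 counts on PUCL@CNT1 and 102 on PUCL in differentiation medium, against 10 on PUCL@CNT1 and 0 on PUCL in maintenance medium. Kcnmb4, the neuronal BK beta subunit, was higher on PUCL@CNT1 in both media, with 79 counts against 32 on PUCL in differentiation medium and 52 against 11 on PUCL in maintenance medium, or 2.40-fold (1.57 to 3.74) and 4.99-fold (2.57 to 10.6). In edgeR 0 of these 5 genes passed for either term, with 0 at an unadjusted p under 0.05 and 0 in DESeq2 and limma-voom, and their adjusted p-values for medium lay between 0.672 and 1.00.

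More widely, 6 of 69 channel genes were past the size rule for medium in opposite directions on the 2 platforms, against 4.19% of all genes. They were Cacna1b, Kcnd2, Kcnj14, Kcnn2, Kcnn3 and Kcnn4, and each had a library at 0 or 1 counts. Kcnj14, the Kir2.4 inward rectifier, had 23 counts on PUCL@CNT1 and 11 on PUCL in differentiation medium, against 80 on PUCL@CNT1 and 1 on PUCL in maintenance medium. For the ratio of the platform ratios in the 2 media, 14 genes were past the size rule upwards and 12 downwards, against 15.4% and 14.1% of all genes (29.5% in either direction). With 1 library per group, no spread within a group stands behind these differences.

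**Figure D4:**
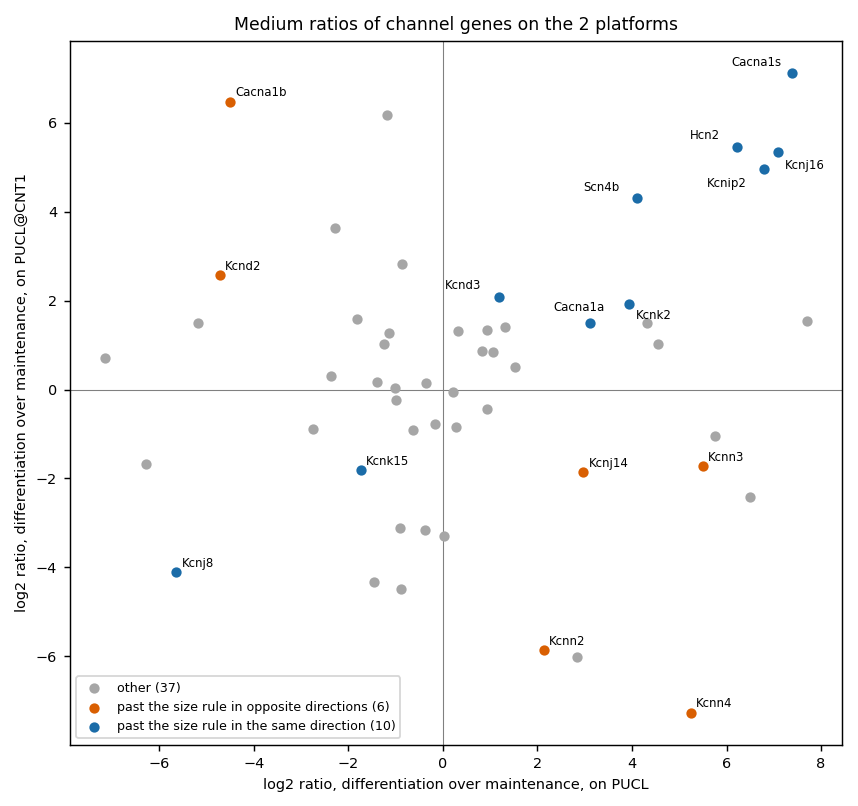
Log2 ratio of differentiation over maintenance medium on PUCL (x axis) and on PUCL@CNT1 (y axis) for 53 channel genes with a count in both pairs; blue marks 10 genes past the size rule in the same direction, orange the 6 in opposite directions, grey the other 37. Ratios use 0.5 added counts, so points far from 0 belong mostly to genes with a library at 0.

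Hcn2 encodes a channel that opens on hyperpolarisation. Its counts were 23 on PUCL@CNT1 and 36 on PUCL in differentiation medium and 0 in both maintenance libraries. The 95% interval of the Hcn2 rise began at 5.40-fold for PUCL@CNT1 and 9.45-fold for PUCL, with an edgeR adjusted p of 0.706. Hcn3 and Hcn4 were at 0 in all 4 libraries.

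Among the Clcn genes, Clcn6 was lower on PUCL@CNT1 in both media. Clcn6 encodes a chloride/proton exchanger of late endosomes. It had 3 counts (0.451 CPM) on PUCL@CNT1 against 149 (23.0 CPM) on PUCL in differentiation medium, and 28 (4.48 CPM) on PUCL@CNT1 against 285 (43.2 CPM) on PUCL in maintenance medium. Both PUCL@CNT1 libraries lay below both PUCL libraries, 51.1-fold (17.1 to 250) in differentiation medium and 9.64-fold (6.53 to 14.8) in maintenance medium. The fitted log2 difference was -4.24 (SE 0.921), with an edgeR adjusted p of 0.00841. It passed in 4 of 7 other tests and was lost with a mean of at least 50 counts required (adjusted p 0.363), with platform as the single term (0.285) and in limma-voom (0.469). DESeq2 gave it no adjusted p. Of 4 fits that left out a library, with platform as the single term and a lone library assumed to vary like the others, 1 passed (0.00389 without maintenance cells on PUCL@CNT1). The adjusted p was 0.397 without differentiation cells on PUCL@CNT1, 0.192 without differentiation cells on PUCL and 0.808 without maintenance cells on PUCL, where the fitted log2 difference was -3.22. By medium its ratio was 9.93-fold lower (3.07 to 51.1) on PUCL@CNT1 and 1.88-fold lower on PUCL, with an adjusted p of 0.349.

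Clcn4 and Clcn7 were also lower on PUCL@CNT1 in differentiation medium by the size rule, and these genes, with Clcn3 and Clcn5, were chosen after their values were seen. Clcn4, an endosomal exchanger, had 51 counts in differentiation cells on PUCL and 0 in the other 3 libraries. Clcn7, the exchanger of lysosomes, had 38 counts in differentiation cells on PUCL and 0 in the other 3 libraries. The stretches before their start sites and that of Clcn6 are shown because these 3 are the Clcn genes whose RefSeq promoter window holds CACGTG, an E-box hexamer that reads the same on both strands (capitals). They are chr5:163748199-163748448 for Clcn6 (minus strand, 250 bases), chr10:14656171-14656250 for Clcn7 (plus strand, 80 bases) and chrX:27290849-27290928 for Clcn4 (plus strand, 80 bases), in GRCr8.
Clcn6: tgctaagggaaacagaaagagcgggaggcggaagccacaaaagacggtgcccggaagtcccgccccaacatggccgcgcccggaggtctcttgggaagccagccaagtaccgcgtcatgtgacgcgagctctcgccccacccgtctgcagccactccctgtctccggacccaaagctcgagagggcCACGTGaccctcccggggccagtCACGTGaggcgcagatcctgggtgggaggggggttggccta
Clcn7: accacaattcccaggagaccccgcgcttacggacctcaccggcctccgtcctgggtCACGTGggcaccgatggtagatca
Clcn4: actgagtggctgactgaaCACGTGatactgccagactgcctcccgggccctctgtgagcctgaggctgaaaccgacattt
CACGTG stood in 6.418% of all 33469 promoter windows, in 3 of 8 windows of the 6 tested Clcn genes and in 5 of 57 windows of tested channel genes, the others being Kcnk5 and Trpm7. Kcnk5 had 16 counts on PUCL@CNT1 against 0 on PUCL in differentiation medium and 9 against 72 in maintenance medium. Trpm7 had 292 counts on PUCL@CNT1 against 385 on PUCL in differentiation medium and 473 against 440 in maintenance medium. A link between the hexamer and the counts was not tested.

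Clcn2, Clcn3 and Clcn5, counted in all 4 libraries, were higher in differentiation medium on both platforms, while Clcn6, also counted in all 4, was lower. Clcn2, a chloride channel of the cell membrane, had 593 counts (89.2 CPM) on PUCL@CNT1 and 478 (73.9 CPM) on PUCL in differentiation medium, against 305 (48.8 CPM) on PUCL@CNT1 and 275 (41.7 CPM) on PUCL in maintenance medium. The groups did not overlap; the ratio was 1.83-fold on PUCL@CNT1 and 1.77-fold on PUCL, below the size rule, with a fitted log2 change of 0.85 (SE 0.378) and an edgeR adjusted p of 0.306. Clcn3, an endosomal exchanger, had 433 counts on PUCL@CNT1 and 384 on PUCL in differentiation medium, against 225 on PUCL@CNT1 and 189 on PUCL in maintenance medium, 1.81-fold and 2.07-fold higher, with an adjusted p of 0.323. Clcn5 had 108 counts on PUCL@CNT1 and 170 on PUCL in differentiation medium, against 40 on PUCL@CNT1 and 91 on PUCL in maintenance medium, and was lower on PUCL@CNT1 in both media, short of the size rule.

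**Figure D5:**
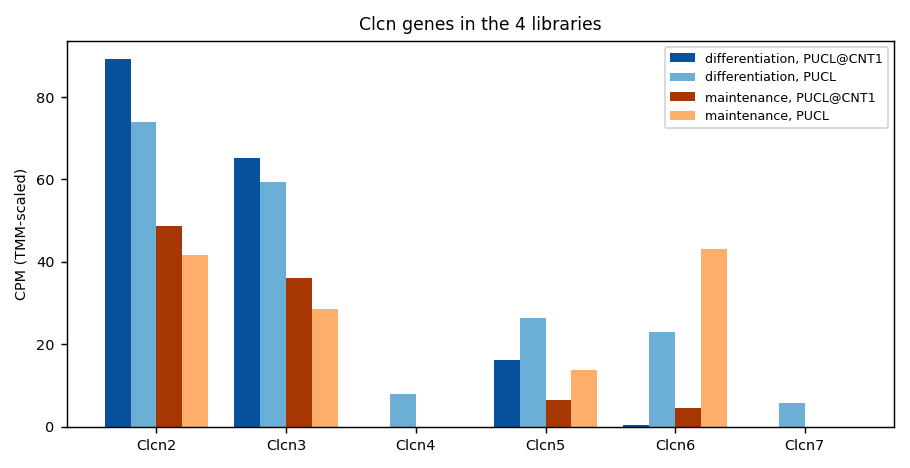
Counts relative to the scaled library size (CPM, y axis) of the 6 tested Clcn genes in the 4 libraries (bars, 1 library each, no error bars because no group was replicated). Clcn6 stands at 0.451 and 4.48 CPM on PUCL@CNT1 against 23.0 and 43.2 CPM on PUCL, while Clcn2 is higher in both differentiation libraries.

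Piezo1, the force-gated cation channel, was well counted in every library. It had 477 counts (71.7 CPM) on PUCL@CNT1 and 273 (42.2 CPM) on PUCL in differentiation medium, against 526 (84.2 CPM) on PUCL@CNT1 and 558 (84.6 CPM) on PUCL in maintenance medium. Both differentiation values lay below both maintenance values, 2.00-fold on PUCL (1.73 to 2.32, at the edge of the size rule and short of it with DESeq2 size factors) and 1.17-fold on PUCL@CNT1 (1.03 to 1.33). In differentiation medium the PUCL@CNT1 library was 1.70-fold above the PUCL library (1.46 to 1.98), and in maintenance medium it was 1.00-fold lower (0.890 to 1.13). The edgeR fit gave a log2 change of -0.61 (adjusted p 0.569) for medium and a log2 difference of 0.38 (adjusted p 1.00) for platform. Ctu2, which overlaps Piezo1 in the annotation, had 391, 206, 582 and 537 counts in the same order of libraries, and reads of the pair may not be told apart.

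Trp channels gave few counts apart from Trpm7. Trpm7, a magnesium-permeable channel fused to a kinase, had 292 counts on PUCL@CNT1 and 385 on PUCL in differentiation medium, against 473 on PUCL@CNT1 and 440 on PUCL in maintenance medium, with an adjusted p of 0.794. Trpm3 had 3 counts on PUCL@CNT1 and 34 on PUCL in differentiation medium, against 29 on PUCL@CNT1 and 45 on PUCL in maintenance medium. Trpm4, opened by calcium, had 38 on PUCL@CNT1 and 14 on PUCL in differentiation medium, against 0 on PUCL@CNT1 and 33 on PUCL in maintenance medium. Trpc1 had 30 counts on PUCL@CNT1 and 27 on PUCL in differentiation medium, against 9 on PUCL@CNT1 and 99 on PUCL in maintenance medium. Trpv4, an osmotically sensitive channel, had 7 counts in differentiation cells on PUCL, 5 in maintenance cells on PUCL and 0 on PUCL@CNT1 in both media, and was not tested. Trpc4ap, which the symbol rule also matched and which encodes a binding partner rather than a pore, had 844 counts on PUCL@CNT1 and 785 on PUCL in differentiation medium, against 818 on PUCL@CNT1 and 694 on PUCL in maintenance medium.

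Without regard to depth, differences between platforms in single pairs were more common among channel genes than among all genes. In differentiation medium, 12 of 69 genes were higher and 21 lower on PUCL@CNT1 by the size rule, against 15.2% and 15.6% of all genes (30.8% in either direction). In maintenance medium, 15 were higher and 13 lower on PUCL@CNT1, against 12.2% and 13.9% of all genes (26.1% in either direction). At 50 to under 200 summed counts, 20 of 34 passed in differentiation medium and 14 of 34 in maintenance medium, against 55.8% and 50.8% of all genes. At 10 to under 50 it was 10 of 19 and 9 of 19, against 53.1% and 46.9%. At 200 to under 1000 it was 3 of 10 and 5 of 10, against 34.8% and 30.5%. At 1000 or more it was 0 of 6 in each medium, against 9.11% and 4.66%. The median log2 ratio of PUCL@CNT1 over PUCL was 0.17 in differentiation medium and 0.08 in maintenance medium, against 0.02 and -0.01 over all genes. Opposite directions in the 2 media were found for 6 genes, against 4.98% of all genes.

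Other channel genes outside the symbol rule were read from 4 lists. In edgeR, 0 of 14 tested genes of calcium store release and entry, 0 of 10 chloride and volume-regulated channels, 0 of 7 channel partners and regulators and 0 of 9 other mechanical, acid-sensing and junction channels passed for either term. At an unadjusted p under 0.05, 1 gene of each list differed by medium, and DESeq2 and limma-voom called 0 in each. Their median log2 ratios for medium on PUCL@CNT1 and on PUCL were 0.16 and 0.16 for the calcium list, 0.41 and -0.21 for the chloride list, 2.85 and 0.60 for partners (2.33 and 0.60 with zeros at 3 counts) and -0.36 and -0.09 for the last list. Rest, a repressor of neuronal channel genes that was on the partner list, had 233 counts on PUCL@CNT1 and 328 on PUCL in differentiation medium, against 179 on PUCL@CNT1 and 194 on PUCL in maintenance medium, with an adjusted p of 0.853.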

How the data were processed

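RNA of rat NSPCs was taken with Trizol and 500 ng went into Lexogen QuantSeq 3′ libraries, per the labels' protocols. Bowtie2, bedtools and the rn6 build were used, per the submitters' processing notes; versions, annotation and strand setting were not given in the sources used here. The deposited values were raw whole-number counts per gene symbol, without normalization. Entries of 1 symbol were summed.

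Libraries held 6035848 to 6855984 counts. Genes with 10 or more counts in any library (10516) were tested with edgeR 4.0.16 after TMM scaling (factors 0.970 to 1.03), with 1 residual and 87.2 prior degrees of freedom, so p-values rest mostly on the spread of other genes. Nothing in the labels says that platforms are repeats. Log2 ratios of pairs used 0.5 added counts, while the folds of pairs and their size rule used scaled counts with nothing added. The exact 95% intervals cover counting error of reads only. Reads carry no molecular identifiers, so the intervals may be too narrow for molecules. Alternatives were other scalings, filters and models (DESeq2 1.42.0, limma 3.58.1), a 3-fold size rule and leaving out each library. The edgeR test for medium, the pair ratios with their size rule and the ratio of the platform ratios were tested on simulated counts. Other steps were not. The genes changed in the edgeR simulation were better counted than most channel genes.

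Channel genes and gene lists were chosen with earlier results of these data known. Genes named are those past the edgeR threshold, past the size rule for medium on both platforms or for platform in both media in the same direction, or past it for the change of the platform difference, every Piezo and Hcn gene, and the gene with most counts of each kind; others named were chosen after their values were seen. Some genes are not reported here, although counts over all channel genes include them. Sequences and overlaps are from RefSeq (GRCr8) and all 163 symbols matched it.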

Additional observations from a re-analysis of the deposited data

Results flagged for a closer look

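The medium ratio of 6 channel genes was past the size rule in opposite directions on the platforms. The differences, as the log2 ratio on PUCL@CNT1 minus that on PUCL with 0.5 added to each count, were 10.97 for Cacna1b, 7.30 for Kcnd2, -4.83 for Kcnj14, -8.01 for Kcnn2, -7.22 for Kcnn3 and -12.51 for Kcnn4. None of these differences was tested, since each group was 1 library. Values of this size depend on the added count because each gene had a library at 0 or 1 counts, and they are no bounds.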

How the results depend on the processing

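No called result changed direction under the alternatives run, and of the summary counts 37 were the same and 17 moved by over 1.5 times. Of the fitted changes of single genes, 201 kept their side of the threshold, 8 lost it and 2 gained it. Of the pair ratios past the size rule under other scalings and filters, 413 stayed past it and 1 did not, that of Piezo1 for medium on PUCL (log2 ratio -0.99 with DESeq2 size factors). For medium, 1 channel gene passed in edgeR, 2 with medium as the single term, 2 in DESeq2, and 0 to 2 when a library was left out. For platform, 1 passed, 0 with a mean of at least 50 counts, 0 with platform as the single term, 0 in DESeq2, 0 in limma-voom, and 0 to 1 when a library was left out; 2 were at an unadjusted p under 0.05 in edgeR. With a mean of at least 50 counts, the size rule was passed by 7 genes for medium on PUCL@CNT1, 9 for medium on PUCL, 3 for platform in differentiation medium, 5 for platform in maintenance medium and 5 for the ratio of the platform ratios, since that filter left 16 channel genes. Of the 9 genes higher on both platforms, 3 (Cacna1a and Kcnd3 among them) were left by that filter and 6 by a 3-fold rule. Over all genes, medium calls were 296 (189 higher, 107 lower), 261 with library totals (139 higher, 122 lower), 64 with that filter, 170 in DESeq2, 176 with the single term and 25 to 263 without a library. Platform calls were 48 (22 higher, 26 lower), 18 with DESeq2 size factors (6 higher, 12 lower), 28 with library totals, 25 with no count filter, 36 in DESeq2, 87 in limma-voom and 0 to 27 without a library; they were 0 with that filter and with the single term. The cause of each shift other than the filter's was not tested. The labels give no replicate numbers, and the fit with both terms already compares media within a platform and platforms within a medium. Fits that left out a library had the tested term alone, so their model also changed. With 1 library per group and few counts per channel gene, depth limits most ratios given here.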

Other observations

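Channel genes counted in a single library were spread over all 4. Of the 89 channel genes with a count, 30 (33.7%) had counts in 1 library only, against 10.6% of all symbols with a count. That comparison was not matched for depth. At like depth, tested channel genes had a 0 in some library about as often as all tested genes. The shares were 94.7% against 94.5% at 10 to under 50 summed counts, and 52.9% against 52.4% at 50 to under 200. The 30 genes were 11 in differentiation cells on PUCL@CNT1 and 8 in differentiation cells on PUCL, against 5 in maintenance cells on PUCL@CNT1 and 6 in maintenance cells on PUCL. Of the 30, 13 reached the count minimum. Kcng1, Kcnh1 and Trpc4 were such genes in differentiation cells on PUCL@CNT1, and Cacna1d, Cacng4, Cacng8, Clcn4 and Clcn7 were the 5 in differentiation cells on PUCL. Kcnj4 and Scn3b were those in maintenance cells on PUCL@CNT1, and Kcna3 and Scn1a those in maintenance cells on PUCL. These genes were named after their values were seen.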
